A study of Homo sapiens with 6 samples.

Results

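The clade A serpins are a family of secreted proteins of the serpin fold, most of them made by hepatocytes and released into blood. They were followed here as 8 genes of the deposited table, SERPINA1, SERPINA3, SERPINA4, SERPINA5, SERPINA6, SERPINA7, SERPINA10 and SERPINA11, among 26475 genes in all. The 8 genes were taken by name, with their difference between the groups already known, so their values in that comparison are given as a description, without p-values, and a count of members called is part of that description and no evidence. The cells were HepG2, a human liver cancer line that keeps much of the hepatocyte's secretory programme, labelled as liver and hepatocellular carcinoma. One group expressed enhanced green fluorescent protein (eGFP), a reporter used as the control, and the other expressed TAF2, part of TFIID, the complex that starts assembly of RNA polymerase II at promoters, and the series as a whole is described as TAF2 overexpression. Each group had 3 RNA-seq libraries from growing cells with no further treatment. How either gene was introduced, and whether the cells were a pool or 1 clone, is not given in the sources used here.

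An inhibitory serpin presents a flexible reactive loop to a serine protease, and cleavage of that loop springs the protein into a new shape that traps the enzyme. Some relatives have lost this function and use the same fold to carry hormones. In humans most clade A genes stand side by side in a cluster in band q32 of chromosome 14, and their transcription in liver is known to depend on hepatocyte factors such as C/EBP proteins, with several members also responding to interleukin 6 in the acute phase.

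Of the 8 genes, 7 lay on chromosome 14 between 94280460 and 94624053 (RefSeq gene table, GRCh38.p14), a stretch of 344 kb. SERPINA10, SERPINA6, SERPINA1 and SERPINA11 are transcribed from the minus strand, and SERPINA4, SERPINA5 and SERPINA3 follow on the plus strand. SERPINA7 stands apart on chromosome X, from 106032435 to 106038727. The RefSeq promoter table held windows of 300 bases, from 250 before to 50 after a start, for all 8 genes, 10 windows in all because SERPINA1 and SERPINA10 had more than 1 start. Both strands were searched for short motifs of hepatic and acute-phase factors and for the TATA box.

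Stretches from before the starts of SERPINA6 and SERPINA5, the members whose levels differed most and least between the groups, of SERPINA7, the gene outside the cluster, and of SERPINA11 follow. They run 5′ to 3′ on the gene's own strand, with matches to the 4 motifs reported in capitals and without bases that GENCODE exons cover.
SERPINA6 (chr14:94323395-94323566, minus strand): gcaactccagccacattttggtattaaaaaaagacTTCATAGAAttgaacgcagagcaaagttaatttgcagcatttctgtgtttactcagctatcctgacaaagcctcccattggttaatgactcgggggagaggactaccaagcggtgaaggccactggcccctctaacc
SERPINA5 (chr14:94581196-94581368, plus strand): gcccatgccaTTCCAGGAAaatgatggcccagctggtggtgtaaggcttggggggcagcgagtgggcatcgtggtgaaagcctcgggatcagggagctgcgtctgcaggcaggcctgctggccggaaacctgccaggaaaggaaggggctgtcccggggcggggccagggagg
SERPINA7 (chrX:106038739-106038957, minus strand): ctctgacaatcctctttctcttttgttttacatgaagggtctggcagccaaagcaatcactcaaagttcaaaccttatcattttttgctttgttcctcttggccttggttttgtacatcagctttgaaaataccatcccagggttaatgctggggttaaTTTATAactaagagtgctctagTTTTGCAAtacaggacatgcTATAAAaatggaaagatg
SERPINA11 (chr14:94452801-94453030, minus strand): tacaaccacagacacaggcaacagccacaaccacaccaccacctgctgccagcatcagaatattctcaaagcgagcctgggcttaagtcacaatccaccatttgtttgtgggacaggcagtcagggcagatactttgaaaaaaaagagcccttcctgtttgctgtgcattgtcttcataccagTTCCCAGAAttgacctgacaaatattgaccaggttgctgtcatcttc

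The STAT form TTCNNNGAA was in the windows of SERPINA6, SERPINA5 and SERPINA11, beginning at -195, -220 and -47 from the start of transcription, against 7.66% of all 35116 windows of that length in the table. TATAAA, the letters of the TATA box, was found in 1 member window, that of SERPINA7, against 11.5% of all windows. There it began at -29 on the gene's strand and at -71 on the other strand. The C/EBP form TTGCNNAA was in 3 member windows, against 10.5% of all. It began at -49 on the opposite strand in SERPINA7, and in SERPINA10, not printed, a single site lay in both of its overlapping windows, at -217 and -5 from their starts. CAAAGTCCA, a form of the HNF4 site, was in 0 member windows and 0.384% of all. The stretch of SERPINA5 was the richest in G and C of those shown (66.5% of its 173 bases), and that of SERPINA7 the poorest (37.9% of 219 bases). A match describes letters and not a bound site.

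Total expected counts per library ran from 22276308 to 28024004. All 8 members passed the filter on low counts. Of their 48 values 0 were fractional, so none carried a visible share of reads divided with another gene. Over all 26475 genes, those at 0 included, 4.18% to 4.45% of the values in a library were fractional. Of these genes 15412 to 15617 had a count in a library. Coding sequences of the members were 57.6% to 65.6% identical to one another in pairwise alignment. Levels are given as CPM, the counts of a gene scaled to a common library size, and the values of a group are listed in the order of replicates 1 to 3. TAF2 itself was at 37.9 ± 2.31 CPM with eGFP and rose to 48.6 ± 1.37 CPM with TAF2 (SD, n = 3 each). Its log2 fold change was 0.36 with SE 0.0459 and an edgeR adjusted p = 1.44e-08. The sources used here do not tell whether replicates were grown apart, and p-values therefore reflect the variation among these libraries, possibly technical.

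Hepatocyte markers were strong in every library. The 7 hepatocyte genes (ALB, APOA1, APOB, TTR, FGB, HNF4A and AFP) summed to 38971 to 40736 CPM in eGFP and 31688 to 33613 CPM in TAF2 libraries, with 6 lower and 1, FGB, higher with TAF2. Among the markers of other cell types DCN, LUM, KDR, TEK, PTPRC and CD3E had no count in any library. Of 7 fibroblast and stellate genes 3 were tested, and 2 of these were called higher, PDGFRB and COL1A1, beside 20.6% of all tested genes. COL1A1 had low counts, 23, 8 and 20 in eGFP and 42, 38 and 37 in TAF2. ACTA2 was not called, at 48.8 ± 2.60 CPM in eGFP and 47.3 ± 2.02 CPM in TAF2 (SD, n = 3 each). COL1A2 and COL3A1 had at most 1 count in a library. The list, most of it ACTA2, summed to 55.1 to 58.6 CPM in eGFP and 66.2 to 70.6 CPM in TAF2. The 5 endothelial genes summed to 0.295 to 1.08 and 0.549 to 0.714 CPM. The 6 immune genes summed to 1940 to 2058 and 2271 to 2323 CPM, nearly all of it LYZ, which rose (1941 ± 58.1 and 2254 ± 27.9 CPM; SD, n = 3 each), with CD68 and CD14 lower. The 4 bile duct genes summed to 547 to 558 and 577 to 586 CPM, with KRT19 higher and EPCAM and SOX9 lower. The part of these genes in the results below was not tested.

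Every member was lower in each TAF2 library than in any eGFP library. Together the 8 genes made up 5360.2, 5258 and 5398 CPM in the eGFP libraries and 4170.4, 4302 and 4319.6 CPM in the TAF2 libraries, or 0.533% ± 0.00723 and 0.427% ± 0.00801 of all counts (SD, n = 3 each). At a Benjamini-Hochberg adjusted p of 0.05 in edgeR, 8 of 8 were called lower and 0 higher. Over all 12902 tested genes 43.0% were called, made up of 22.4% lower and 20.6% higher. Among all tested genes 26.1% had every TAF2 library below every eGFP library. The members' median log2 fold change was -0.47, beside -0.00275 over all tested genes. Since the genes were chosen with this comparison in view, nothing is read from these counts. In bulk RNA, fewer cells that express a gene and less of its RNA per cell cannot be told apart.

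**Figure D1:**
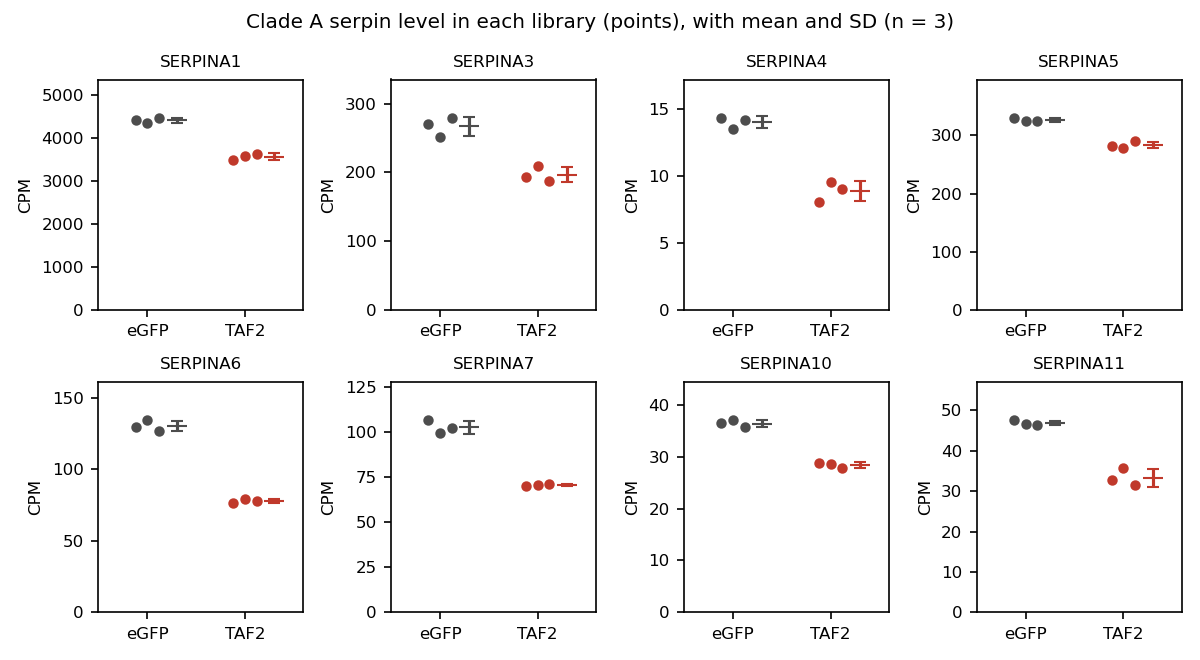
Level of each clade A serpin in CPM (vertical axes from 0) in the 3 eGFP and 3 TAF2 libraries (points, replicates 1 to 3 from left to right), with the mean and SD beside them. In all 8 panels the TAF2 points lie below the eGFP points, from 13.2% lower on the fitted scale for SERPINA5 to 40.2% lower for SERPINA6.

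Among the protease inhibitors, SERPINA1 encodes alpha-1-antitrypsin, the main plasma inhibitor of neutrophil elastase. It was at 4426, 4351 and 4469 CPM in eGFP and at 3480, 3591 and 3625 CPM in TAF2, a log2 fold change of -0.31 (SE 0.0187). The coefficient of variation was 1.35% in eGFP and 2.13% in TAF2, and the gap between the groups was 19.3% on the fitted scale. SERPINA1 was the 11th most counted of the tested genes in both groups, and it made up 82.7% ± 0.119 of the clade's CPM in eGFP and 83.6% ± 0.267 in TAF2 (SD, n = 3 each). The clade's sum therefore mostly follows this 1 gene, and without it the sum was 923 ± 14.8 CPM in eGFP and 699 ± 11.02 CPM in TAF2 (SD, n = 3 each).

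SERPINA3, alpha-1-antichymotrypsin, inhibits cathepsin G and mast cell chymase and is a strong acute-phase protein. Its levels were 270.1, 251 and 279 CPM in eGFP and 193, 209 and 188 CPM in TAF2 (log2 fold change -0.44, SE 0.0569). It varied more between replicates than SERPINA1, with a coefficient of variation of 5.36% in eGFP and 5.62% in TAF2. The groups did not overlap, as for every member.

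SERPINA5 is the protein C inhibitor, which also acts on thrombin and urokinase. It was at 330.1, 325 and 325 CPM in eGFP and at 282, 279 and 290.1 CPM in TAF2, the smallest difference of the members (log2 fold change -0.20, SE 0.0232). The coefficient of variation was 0.952% in eGFP and 2.09% in TAF2, and the gap between the groups was 13.2% on the fitted scale.

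SERPINA10, the protein Z-dependent inhibitor of coagulation factor Xa that also inhibits factor XIa, held 36.4, 37.0 and 35.7 CPM in eGFP and 28.8, 28.5 and 27.7 CPM in TAF2 (log2 fold change -0.36, SE 0.0486). SERPINA4 encodes kallistatin, an inhibitor of tissue kallikrein, and was the least abundant member. Its 14.3, 13.5 and 14.2 CPM in eGFP compared with 8.07, 9.54 and 9.07 CPM in TAF2 (log2 fold change -0.66, SE 0.0838). These rest on 199 to 389 counts of SERPINA4 per library, the smallest numbers among the members, and its fold change had the largest SE of the 8. Of the 5 inhibitors, SERPINA4 thus had the largest difference and SERPINA5 the smallest.

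The log2 fold changes of the hormone carriers, -0.74 and -0.54, lay on either side of that of the inhibitor SERPINA4 (-0.66). SERPINA6 is corticosteroid-binding globulin, which carries cortisol in blood and is not an inhibitor. It was at 129.6, 134 and 127 CPM in eGFP and at 76.5, 79.2 and 77.6 CPM in TAF2, a log2 fold change of -0.74 (SE 0.0310) and the largest difference of the members. SERPINA7, thyroxine-binding globulin, had 106, 99.2 and 102 CPM in eGFP and 70.0, 70.7 and 71.1 CPM in TAF2 (log2 fold change -0.54, SE 0.0335). The coefficient of variation of its TAF2 libraries was 0.791%. SERPINA7 is the 1 member outside the cluster, and its difference lay inside the range of those in it, from -0.74 to -0.20.

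SERPINA11, a clade A gene of the same cluster, was at 47.5, 46.7 and 46.3 CPM in eGFP and at 32.8, 35.8 and 31.4 CPM in TAF2 (log2 fold change -0.49, SE 0.0473). Its spread was 1.27% in eGFP and 6.69% in TAF2, with TAF2 replicate 2 the highest of its group. In TAF2 replicate 2 SERPINA3, SERPINA4, SERPINA6 and SERPINA11 each had their highest value of the TAF2 group, whereas SERPINA1, SERPINA5 and SERPINA7 peaked in replicate 3 and SERPINA10 in replicate 1.

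Because the members differed by unequal amounts, their proportions differed between the groups. There were 34.2, 32.4 and 35.2 counts of SERPINA1 for each count of SERPINA6 in eGFP and 45.5, 45.4 and 46.7 in TAF2. For SERPINA5 over SERPINA6 the ratios were 2.55, 2.42 and 2.56 in eGFP and 3.68, 3.52 and 3.74 in TAF2. These ratios of counts within a library need no scaling between libraries, and neither overlapped between the groups. Both hold SERPINA6, the member with the largest difference, and SERPINA5 had the smallest. Their separation therefore follows from the values above and adds no support. The ratio of SERPINA1 to SERPINA3 did overlap, at 16.4, 17.3 and 15.99 in eGFP and 18.02, 17.2 and 19.3 in TAF2. SERPINA1 over ALB, the albumin gene, was 0.573, 0.560 and 0.573 in eGFP and 0.694, 0.711 and 0.704 in TAF2, so albumin counts were lower by more than those of SERPINA1.

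Levels of different genes were compared per kilobase of coding sequence (1215 to 1332 bases, from GENCODE). On that scale the order was the same in both groups: SERPINA1 first at 3521 ± 47.4 in eGFP and 2843 ± 60.4 in TAF2, then SERPINA5 (268 ± 2.55 and 233 ± 4.86), SERPINA3 (210.4 ± 11.3 and 155 ± 8.72), SERPINA6 (107 ± 3.05 and 64.0 ± 1.10), SERPINA7 (82.3 ± 2.88 and 56.7 ± 0.448), SERPINA11 (37.0 ± 0.468 and 26.3 ± 1.76), SERPINA10 (27.3 ± 0.472 and 21.3 ± 0.411) and SERPINA4 (10.9 ± 0.354 and 6.94 ± 0.586 CPM per kb; SD, n = 3 each). No neighbours in that order overlapped over the libraries of a group. With the mean length of the matched transcripts in place of coding length, a choice made after the data were seen, SERPINA3 came before SERPINA5, by 168 ± 9.01 against 139.7 ± 1.33 CPM per kb in eGFP and by 124 ± 6.96 against 121 ± 2.53 in TAF2, where the 2 genes overlapped.

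**Figure D2:**
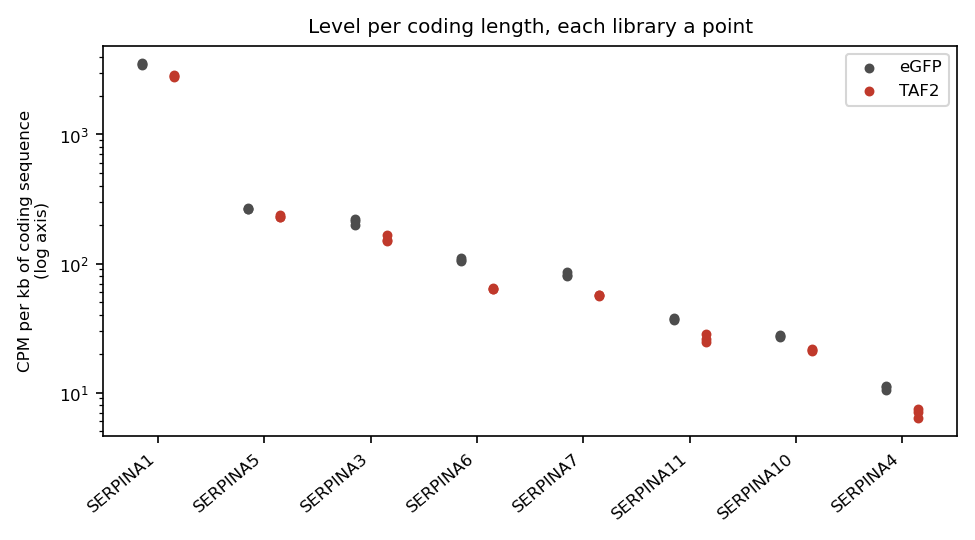
CPM per kilobase of coding sequence (log axis) of the 8 members in each eGFP (grey) and TAF2 (red) library, ordered by level. SERPINA1, at 3521 on average in eGFP, stands far above the others, the lowest being SERPINA4 at 10.9.

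Genes with the most similar profile over the 6 libraries were found by the Euclidean distance between log2 CPM values, each gene centred on its own mean. For SERPINA1 these were NIPSNAP1, PEBP1 and IDH2 (distances 0.0316, 0.0322 and 0.0383), for SERPINA3 ARL2, FCGRT and HEPACAM (0.0493, 0.0532 and 0.0772), and for SERPINA4 CPB2, LDHD and DHCR7 (0.0768, 0.117 and 0.122). SERPINA5 was nearest to SSRP1, OTUB1 and KIAA2013 (0.0276, 0.0318 and 0.0345), SERPINA6 to TKFC, TM7SF2 and CPE (0.0889, 0.0896 and 0.0936), and SERPINA7 to NT5E, TMEM45B and ACSS1 (0.0476, 0.0476 and 0.0511). SERPINA10 was nearest to TP53I3, GGH and HSD17B4 (0.0345, 0.0363 and 0.0411), and SERPINA11 to LCAT, HP and NFATC2 (0.0878, 0.0909 and 0.0936). Of these 24 genes 8 lie on chromosome 11, which holds 5.62% of the tested genes and where the median log2 fold change was -0.28. All 24 had a negative log2 fold change, and chromosome 11 holds 537 of the 2886 genes called lower. There 74.1% of tested genes were called lower, against 22.4% of all. The part of the chromosome in these profiles was not tested. With 2 groups, the distance mostly reflects a difference of like size between them.

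The other clade A genes were AGT, SERPINA2, SERPINA9, SERPINA12 and SERPINA13P. AGT, which encodes angiotensinogen and lies on chromosome 1, was the single gene of these 5 with enough counts to test. It was at 914, 881 and 892 CPM in eGFP and 714, 717 and 733 CPM in TAF2. It fell (log2 fold change -0.31, SE 0.0208, edgeR adjusted p = 2.51e-16), with no overlap between groups. SERPINA2, SERPINA9 and SERPINA12, all within the chromosome 14 cluster, had at most 3 counts in a library, and SERPINA13P was at 0 in all 6. The cluster therefore held 7 expressed serpin genes interleaved with 3 that were nearly silent in both groups.

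Serpins of other clades went both ways. Of 24 listed genes 13 were tested, 8 fell and 2 rose, with a median log2 fold change of -0.20, beside 22.4% lower and 20.6% higher over all tested genes. SERPINC1, antithrombin, went from 129 ± 4.65 to 86.9 ± 1.88 CPM (-0.57, SE 0.0311, edgeR adjusted p = 3.22e-19; SD, n = 3 each). SERPINF1, pigment epithelium-derived factor, fell with a log2 fold change of -0.29, and the intracellular SERPINB6 with -0.45. The 2 that rose, named after their values were seen, were SERPINE2 (0.59), protease nexin 1, and SERPINB9 (0.40), the granzyme B inhibitor. SERPINH1, SERPINB8 and SERPING1 were not called. The range of the serpins of other clades, from -0.58 to 0.59, enclosed the differences of 6 of the 8 members, and SERPINA4 and SERPINA6 lay below it.

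**Figure D3:**
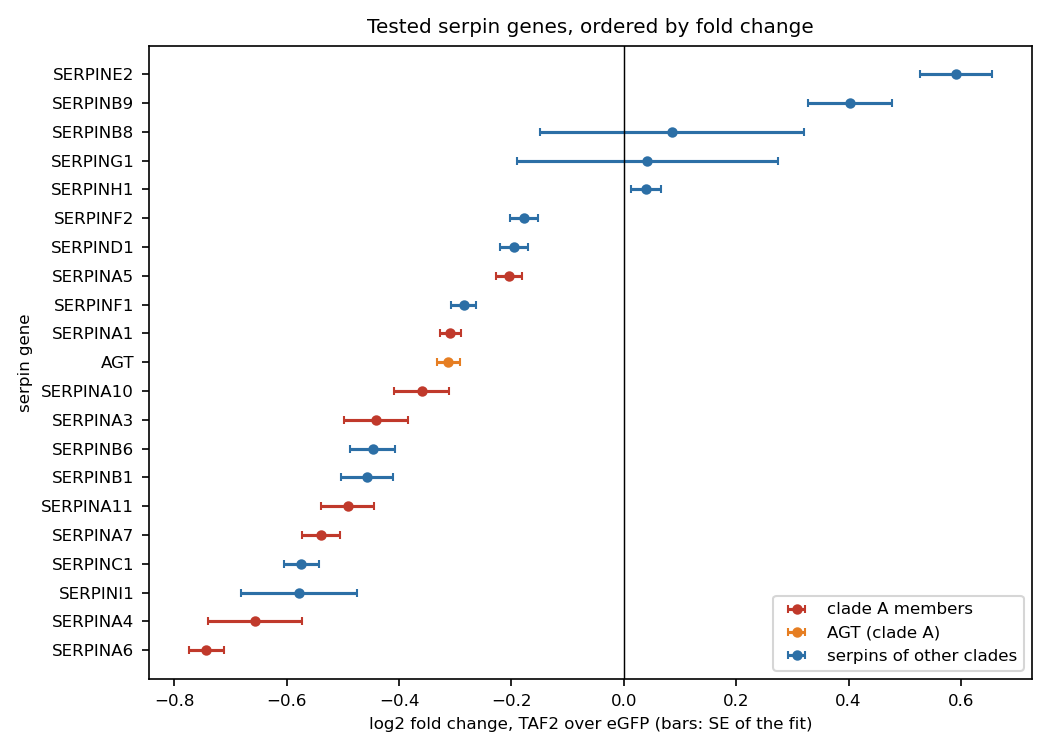
Log2 fold change of TAF2 over eGFP (horizontal axis) with the SE of the fit for tested serpin genes, 1 gene of the other clades not being drawn, ordered from SERPINA6 at the bottom to SERPINE2 at the top. Members are red, AGT orange and serpins of other clades blue. The members run from -0.74 to -0.20, with SERPINA6 and SERPINA4 below all other serpins drawn.

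Many proteases that clade A serpins meet are known as products of leukocytes, mast cells or other tissues. Of 17 listed genes 8 passed the filter on low counts, and the targets of SERPINA1 and SERPINA3 in leukocytes and mast cells (ELANE, PRTN3, CTSG and CMA1) did not. All 8 that were tested fell (median log2 fold change -0.57), beside 22.4% called lower over all tested genes. Called falls numbered 7 with DESeq2, and also 7 when eGFP replicate 1, eGFP replicate 3 or TAF2 replicate 3 was left out. F2, prothrombin, whose active form SERPINA5 inhibits, went from 640.5 ± 5.50 to 444 ± 8.46 CPM (SD, n = 3 each), with a log2 fold change of -0.53, SE 0.0215 and edgeR adjusted p = 1.51e-23. HPN, the cell surface protease hepsin, had -0.49, and PLAU, urokinase, had -1.27 at a low level (7.12 ± 0.349 to 2.94 ± 0.100 CPM; SD, n = 3 each). F11, factor XI and a target of SERPINA10, had -0.62. The other 4 were given after their values were seen. F10 (-0.29) and PROZ (-0.70) are the enzyme and cofactor with which SERPINA10 forms its complex. PROC (-0.10) is the zymogen of activated protein C, and ST14 had -0.74. PROZ and ST14 were also at a low level, 4.29 ± 0.412 and 3.44 ± 0.588 CPM in eGFP (SD, n = 3 each). F2 and ST14 lie on chromosome 11 and F11 on chromosome 4, where the median over tested genes was -0.28 and -0.18. On these chromosomes 74.1% and 58.0% of tested genes were called lower, and the part of the chromosome in the 3 falls was not tested. The same median was 0.02 on chromosome 14 without the members.

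Regulators of hepatic and acute-phase transcription went both ways. Of 21 genes, all tested, 8 fell, 3 rose and 10 were not called, with a median log2 fold change of -0.06. Over all tested genes 22.4% were called lower and 20.6% higher. NR5A2, an orphan nuclear receptor of liver, fell most, from 19.8 ± 1.04 to 3.95 ± 0.353 CPM (-2.33, SE 0.0920, edgeR adjusted p = 6.63e-24; SD, n = 3 each). CEBPB, which is induced in the acute phase, rose by 0.32, and STAT3, which relays interleukin 6 signals, fell with -0.21. The other C/EBP genes of the list, given after their values were seen, fell: CEBPA with -0.11 and CEBPD with -0.36.

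Genes for the folding, export and disposal of secreted serpins differed by log2 fold changes of -0.29 to 0.12. Of 19 tested, 6 fell, 1 rose and 12 were not called, with a median of -0.03. The shares over all tested genes were 22.4% lower and 20.6% higher. SYVN1 (-0.29), a ubiquitin ligase of endoplasmic reticulum-associated degradation, EDEM1 (-0.22) and MAN1B1 (-0.17), which mark misfolded glycoproteins for disposal, and MCFD2 (-0.10), a partner of the cargo receptor LMAN1, were the called genes with the smallest p. SYVN1 lies on chromosome 11, where the median over tested genes was -0.28, and the part of the chromosome in its fall was not tested. SURF4, a cargo receptor of the early secretory pathway named after its value was seen, was at 518 ± 4.41 and 510 ± 5.30 CPM (SD, n = 3 each) and was not called.

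Among hormone partners and clearance receptors 8 of 12 tested genes fell and 3 rose, with a median of -0.12. Beside this, 22.4% of all tested genes were called lower and 20.6% higher. ALB, which also carries steroid and thyroid hormones, went from 7766 ± 36.1 to 5069 ± 69.5 CPM (log2 fold change -0.62, on chromosome 4), DIO1, which activates thyroxine, from 15.1 ± 0.787 to 6.58 ± 0.351 CPM (-1.20), RBP4 from 519 ± 6.97 to 427 ± 2.55 CPM (-0.28) and the thyroid hormone receptor THRB from 34.4 ± 0.538 to 26.4 ± 1.02 CPM (-0.38; SD, n = 3 each). The 3 rises, of LRP1 (0.06), which clears serpin-protease complexes, VLDLR (0.21) and THRA (0.17), named after their values were seen, were small, and their number fell to 0 without eGFP replicate 3 and to 1 without TAF2 replicate 1. Called falls in this list numbered 7 with the size factors of DESeq2. They numbered 6 with DESeq2, with upper-quartile scaling or without a filter on low counts. Without TAF2 replicate 1 they numbered 5, and without any other single library 6.

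**Figure D4:**
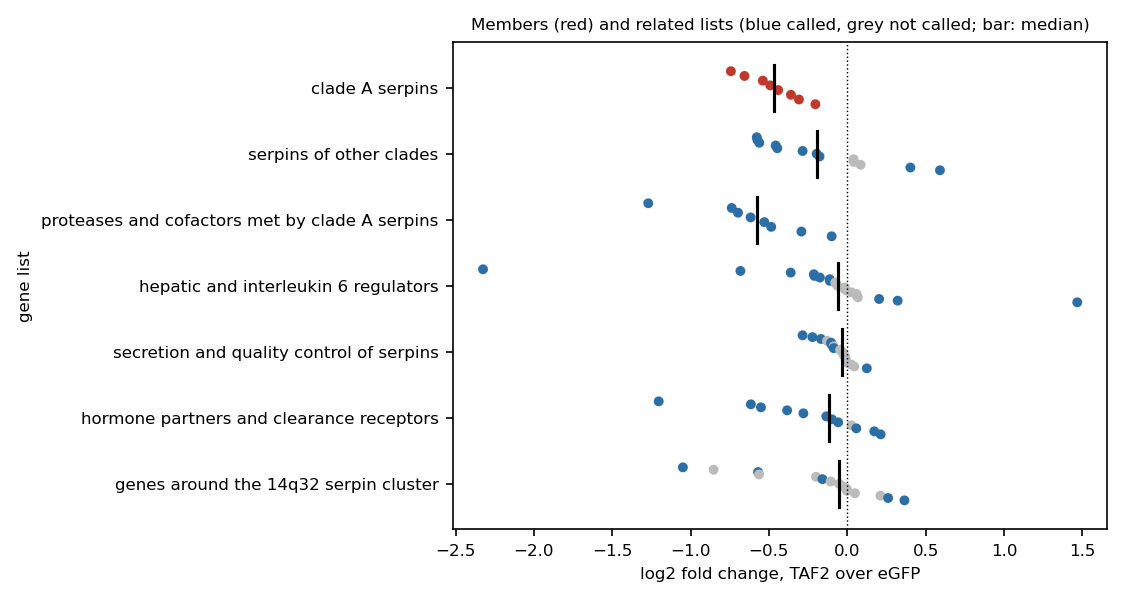
Log2 fold change of TAF2 over eGFP (horizontal axis) for the 8 members (red) and for tested genes of related lists, AGT not being drawn. Genes of the lists are blue where called and grey where not, with a bar at each median. The members' bar is at -0.47, that of the proteases and cofactors at -0.57 and that of secretion and quality control genes at -0.03.

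The genes around the chromosome 14 cluster were examined as neighbours chosen by position alone. Within 1 Mb on either side 29 other genes stood in the table and 15 were tested. Of these 3 fell, 2 rose and 10 were not called, with a median log2 fold change of -0.05. That was 20% lower and 13.3% higher, beside 22.4% and 20.6% over all tested genes. PPP4R4, a regulatory subunit of protein phosphatase 4, ends 0.726 kb from SERPINA10. It was at 8.11, 9.36 and 8.50 CPM in eGFP and 7.86, 8.36 and 8.71 CPM in TAF2. The groups overlapped and the gene was not called (-0.05, SE 0.0947, edgeR adjusted p = 0.694). SERPINA10 beside it was at -0.36, and the difference between the 2 genes was not tested. On the far side, beyond SERPINA3, the nearest tested gene was DICER1, which cuts microRNA precursors, at a distance of 462 kb. It held 157 ± 2.31 and 156 ± 3.15 CPM (SD, n = 3 each) and was not called (log2 fold change 0.00).

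Called neighbours were scattered at larger distances. ASB2 (-1.05, 10.6 ± 1.21 to 5.17 ± 0.433 CPM) lay 304 kb before the cluster, PRIMA1 (0.36) 491 kb and BTBD7 (-0.16) 947 kb before it, and CLMN (-0.57, 25.3 ± 0.742 to 17.1 ± 0.806 CPM; SD, n = 3 each) 558 kb and SNHG10 (0.26) 909 kb after it. SNHG10 was not called without eGFP replicate 3 (0.22) or without TAF2 replicate 3 (0.23), which left 1 rise in the window. The genes between ASB2 and the cluster, OTUB2 (-0.11), DDX24 (0.05), IFI27L1 (-0.20) and IFI27L2 (-0.56, at 0.519 ± 0.112 CPM in eGFP), were not called, nor were FAM181A (-0.85), SYNE3 (0.00), GLRX5 (-0.03) and DICER1-AS1 (0.21). FAM181A had 19, 16 and 10 counts in eGFP and 4, 18 and 4 in TAF2, and TAF2 replicate 2 stood apart from the other two. Its log2 fold change was -1.96, and called, without TAF2 replicate 2, and -0.54 and -0.46, not called, without TAF2 replicate 1 or 3. The positions of DICER1-AS1 and DICER1 overlap and, with no strand setting given, reads from the short stretch they share cannot be told apart. Over the 427 other tested genes of chromosome 14, 62 were called lower and 106 higher.

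**Figure D5:**
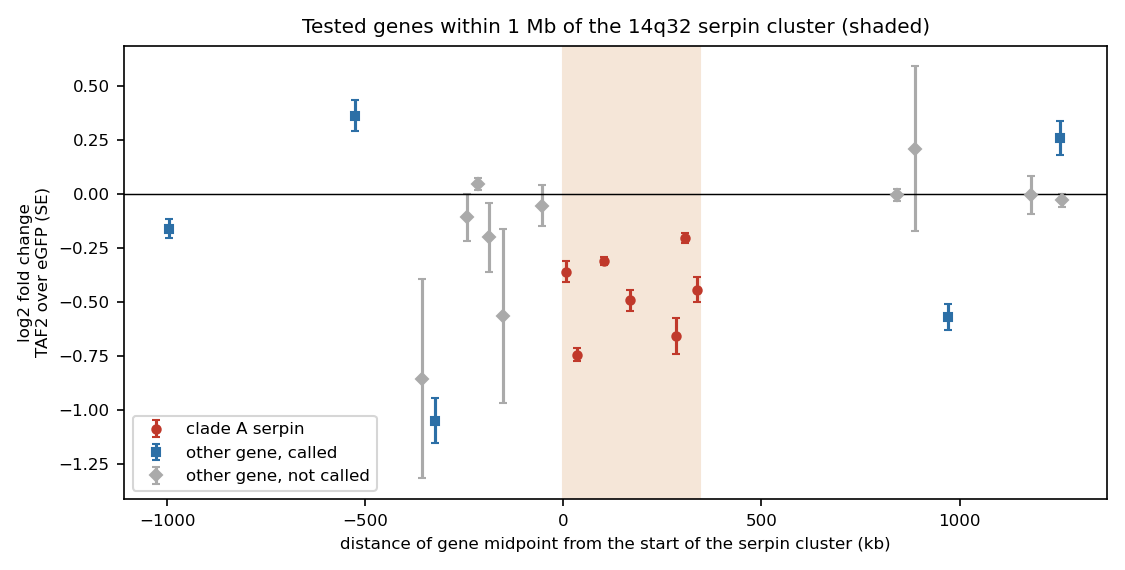
Log2 fold change of TAF2 over eGFP (vertical axis, with the SE of the fit) against the distance of each gene's midpoint from the start of the serpin cluster in kb, the cluster being shaded. The 7 serpins lie between -0.74 and -0.20, and the 15 other tested genes lie between -1.05 and 0.36, 10 of them not called (grey).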

How the data were processed

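RNA-seq libraries of HepG2 cells expressing eGFP or TAF2 (3 each) were made with a TruSeq kit, per the labels' protocols. The deposited table gives the authors' expected counts for each gene, estimated with RSEM per the submitters' processing notes, which also list hg38. It carries RefSeq transcript accessions. Aligner, annotation release and strand setting: not given in the sources used here. Columns were matched to libraries by name, leaving 0 columns out.

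Counts were rounded and filtered with filterByExpr of edgeR 4.0.16 (R 4.3.3), leaving 12902 genes. CPM used library sizes scaled by TMM. The quasi-likelihood test (glmQLFit, robust) had the group as its only term, with Benjamini-Hochberg adjustment across the 12902 genes and a threshold of 0.05. The test was checked on simulated counts. SE is the log2 fold change divided by the root of F. Positions came from RefSeq (GRCh38.p14) by accession, promoter windows from RefSeq (GRCh38.p14), and transcript lengths from GENCODE, also GRCh38, in place of a protein table, which was not used here. Coding identity came from global alignment (Biopython 1.88).

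The members and lists were chosen with earlier results of these data known. Named genes are TAF2, the members, up to 4 called genes of each list with the smallest p (2 by CPM where none was called), all tested genes within 1 Mb of the cluster, and the 3 nearest profiles (mean of at least 5 CPM, log2 of CPM plus 0.5) per member. Same-numbered libraries were not taken as pairs. Alternatives were other scalings, filters, DESeq2 1.42.0, a replicate block and leaving out each library. Some named genes and 1 motif search are not reported here, though listed genes remain in the counts.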

Additional observations from a re-analysis of the deposited data

How the results depend on the processing

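The members were chosen on this comparison, so their values under the 12 alternatives, all from the same 6 libraries, are a description and no support. All 8 were lower and called in each, with log2 fold changes from -0.76 to -0.72 for SERPINA6 and from -0.22 to -0.19 for SERPINA5 at the extremes. Called genes overall numbered 4307 with DESeq2 and up to 5732 without a filter on low counts. For hormone partners and clearance receptors, rises numbered 1 with DESeq2 and 0 to 2 when a library was left out, and falls 5 to 6. For genes around the cluster, rises numbered 1 to 2 when a library was left out. Without TAF2 replicate 2 FAM181A was called (-1.96); the cause was not tested. Deviations of same-numbered libraries from their group means correlated at -0.0789, -0.104 and -0.0984 over genes. Those of differently numbered libraries correlated at 0.0207 to 0.0753. Deviations centred within a group constrain one another, so these values cannot decide whether the numbers mark pairs. With the replicate number as a block 5250 genes were called, against 5548 without it, and 8 members remained lower, with hormone partner falls at 6 and rises at 2. Using transcript length, chosen after the data were seen, the ratio of SERPINA5 to SERPINA3 went from 1.27 to 0.832 in eGFP and from 1.501 to 0.980 in TAF2.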
